A study of Mus musculus with 6 samples.

Results

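The genes described here are 26 genes of cholesterol synthesis and of the control of the transcription factor SREBP2, taken by name from a deposited table of 55487 mouse genes. They comprise 8 enzymes that lead from acetyl-CoA to the prenyl diphosphates, 11 enzymes from squalene to cholesterol, and 7 genes that control SREBP2 or the uptake of sterol. All 26 were in the table and all passed the filter on low counts. The cells were RM-1, a single mouse prostate cancer cell line, transduced with a lentivirus that overexpresses Bhlhe22 (Bhlhe22 cells) or with a blank lentiviral vector (vector cells). RNA of 3 libraries per group was sequenced. Both groups therefore share the RM-1 background and a lentivirus. The labels used here name neither the promoter that drives the transgene, nor the time after transduction, nor the sterol content of the medium. Bhlhe22 encodes a transcription factor of the basic helix-loop-helix class, best known from neurons. The labels do not say whether the libraries came from separate cultures, so p-values measure the spread between these libraries, which may be technical.

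Cholesterol is built from acetyl-CoA through mevalonate, the prenyl diphosphates, squalene and lanosterol. When sterols in the endoplasmic reticulum are low, the escort protein SCAP carries SREBP2 to the Golgi, where a pair of proteases release the part that enters the nucleus and activates genes of this pathway. When sterols are plentiful, the INSIG proteins hold SCAP and SREBP2 in the endoplasmic reticulum. Proliferating cells, tumour cells included, use the pathway to supply membranes and prenyl groups.

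Counts per library summed to between 15464709 and 25129552. Bhlhe22 had 0 counts in all 3 vector libraries and between 8706 and 17995 in the Bhlhe22 libraries. The epithelial keratins Krt8 and Krt18 were present at 515 to 766 and 609 to 757 CPM (CPM, counts scaled to a common library size), whereas the epithelial genes Epcam (3.40 to 4.66 CPM) and Cdh1 (at most 6 counts) were low. The basal genes Krt5, Krt14 and Trp63 had at most 4 counts, the prostate gene Pbsn had 0 counts in every library, and the mesenchymal gene Vim reached 1248 to 1716 CPM. Of 10 prostate and epithelial markers 3 were tested and 1 was lower (Krt8, log2 fold change -0.47), and of 5 mesenchymal markers 1 was lower (Vim, -0.33), both named after their values were seen. Of 14 markers of other cell types, 9 had at most 10 counts in every library, and Ptprc, the pan-leukocyte gene, had at most 3. Their summed level was 77.0 to 92.6 CPM in vector and 88.4 to 122 CPM in Bhlhe22 libraries, most of it from Cd68 and Ncam1, and their part in the results below was not tested. Adgre1, Lyz2 and Cd3e had 0 counts throughout. Bhlhe22 replicate 1, the shallowest library, was the lowest of the 3 Bhlhe22 libraries in 41.9% of 14663 tested genes and the highest in 41.7%, more often than either of the others.

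Since many of these genes lie lower together, the stretches just upstream of 5 of them are printed to show what their promoters hold. They come from the RefSeq start-site windows of the GRCm38.p6 build, which held 23 of the 26 genes (Fdps, Sqle and Fdft1 had none). Each runs 5′ to 3′ on the strand of its gene and ends before the first transcribed base of either annotation. Capitals mark the sterol regulatory element TCACNCCAC, which SREBP binds, and the box CCAAT on either strand, which the SREBP partner NF-Y binds.
Hmgcs1, chr13:119690101-119690350, plus strand: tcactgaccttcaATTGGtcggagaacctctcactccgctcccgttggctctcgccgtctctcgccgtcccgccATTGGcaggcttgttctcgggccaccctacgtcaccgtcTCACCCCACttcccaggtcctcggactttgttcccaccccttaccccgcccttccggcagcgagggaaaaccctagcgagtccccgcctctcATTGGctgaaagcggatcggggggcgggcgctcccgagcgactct
Mvd, chr8:122443423-122443672, minus strand: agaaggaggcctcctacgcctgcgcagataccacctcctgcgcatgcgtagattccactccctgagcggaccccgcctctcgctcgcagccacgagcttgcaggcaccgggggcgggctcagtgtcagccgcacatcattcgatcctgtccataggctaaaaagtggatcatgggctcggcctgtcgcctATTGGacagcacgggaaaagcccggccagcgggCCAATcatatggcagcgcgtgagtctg
Hsd17b7, chr1:169969242-169969455, minus strand: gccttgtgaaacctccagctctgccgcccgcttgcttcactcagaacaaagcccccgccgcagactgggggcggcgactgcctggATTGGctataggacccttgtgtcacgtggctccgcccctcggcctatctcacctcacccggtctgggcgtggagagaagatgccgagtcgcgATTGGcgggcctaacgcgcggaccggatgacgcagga
Insig1, chr5:28071162-28071362, plus strand: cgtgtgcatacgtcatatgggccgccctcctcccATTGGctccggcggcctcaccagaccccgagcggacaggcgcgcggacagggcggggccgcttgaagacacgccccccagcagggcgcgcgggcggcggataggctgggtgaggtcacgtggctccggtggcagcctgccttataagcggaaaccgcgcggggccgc
Insig2, chr1:121332590-121332839, minus strand: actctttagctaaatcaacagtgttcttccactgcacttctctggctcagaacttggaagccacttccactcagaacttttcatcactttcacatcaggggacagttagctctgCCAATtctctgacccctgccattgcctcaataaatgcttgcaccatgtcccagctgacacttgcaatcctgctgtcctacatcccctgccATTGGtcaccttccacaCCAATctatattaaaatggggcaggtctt

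Hmgcs1, Mvd, Hsd17b7 and Insig1 are shown as 4 of the 6 genes that lay at less than 50% of vector, and Insig2 because it was the member past the test in the upward direction. Of these 5 stretches the one of Hmgcs1 holds the sterol regulatory element, and each of the 5 holds between 1 and 3 CCAAT boxes. Over the full windows of 300 bases (250 before to 50 after the start), both strands searched, the sterol element was in 1 of 23 members and in 1.06% of 9931 tested genes with a window (1.25% of all 20977 genes with one). Only exact matches were counted. Variants that differ in 1 letter, such as TCACCTCAC in the Hsd17b7 stretch, were scored as absent, so the count does not show that other members lack a sterol element. CCAAT was in 18 of 23 members, against 39.4% of the tested genes and 38.5% of all genes, and was in 11 of 13 members called lower and 7 of the 10 others. Acat2 and Idi1, also at less than 50% of vector, are not printed. The window of Acat2 held 0 CCAAT boxes and that of Idi1 held 2. The Sp1 box GGGCGG was in 19 of 23 members, including all 13 called lower, against 65.4% of tested genes (42.4% of all). E-boxes, the CANNTG letters that basic helix-loop-helix factors bind, were in 18 of 23 members, 62.0% of tested genes and 70.0% of all. Of the special forms of that box, CATATG was in 3 members (Insig1, Mvd and Mbtps2; 1.52% of tested genes, 3.46% of all). CAGATG was in 3 members (Dhcr7, Idi1 and Mvk; 11.2% and 15.9%), and CACGTG was in 4 (Hsd17b7, Insig1, Sc5d and Scap; 10.2% and 7.67%). These matches describe letters in one window per gene and were not tested.

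Most enzymes of the pathway were lower in Bhlhe22 cells, while Srebf2 and the genes that escort and cleave its protein did not pass the test. Of the 26 genes, 14 fell, 1 rose (Insig2) and 11 did not pass the test (edgeR quasi-likelihood test, Benjamini-Hochberg adjustment over all 14663 tested genes, threshold 0.05). Of all tested genes 19.6% were called in either direction, 9.28% lower and 10.4% higher. At no more than 50% of vector and called lower were 6 of the 26 genes (Acat2, Hmgcs1, Mvd, Idi1, Hsd17b7 and Insig1), against 1.44% of tested genes. In bulk RNA, fewer cells that express a gene and less RNA per cell cannot be told apart. The median log2 fold change was -0.57 over the 26 genes and 0.01 over all tested genes. In 16 of the 26 all 3 Bhlhe22 libraries lay below all 3 vector libraries (20.0% of tested genes), and in 3 (Ggps1, Insig2 and Scap) they lay above (20.8%). By role, 5 of 8 enzymes up to the prenyl diphosphates fell (median log2 fold change -0.94), 8 of 11 from squalene onward fell (-0.59), and of the 7 control genes 1 fell and 1 rose (0.02). Leaving out Bhlhe22 replicate 1 gave 17 lower and 3 higher members, and leaving out any other library gave 12 to 14 lower and 0 higher. The calls over all genes moved too. Without Bhlhe22 replicate 1, 2337 of 14945 tested genes were lower and 2345 higher, against 1361 and 1520 of 14663 with all 6 libraries. Fits without another library went down to 633 lower and 715 higher genes.

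**Figure D1:**
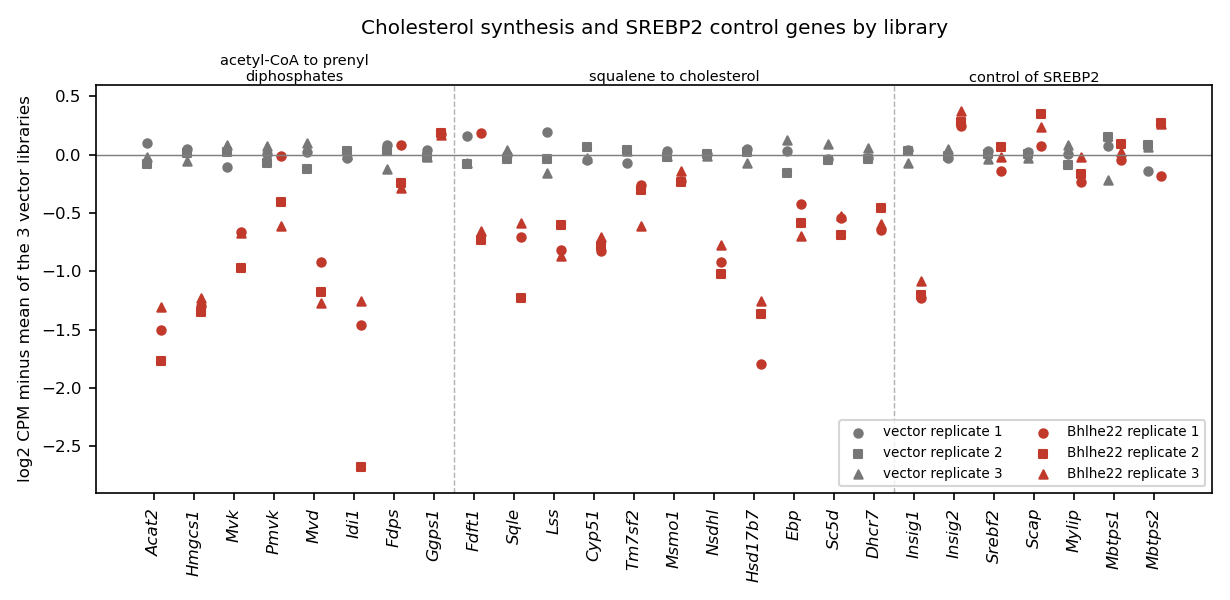
Level of each of the 26 genes in each library, as log2 CPM minus the mean of the 3 vector libraries (y axis), in pathway order (x axis). Grey points are vector and red points Bhlhe22 libraries, with shape giving the replicate number, and dashed lines separate the 3 roles. In 16 genes all red points lie below all grey points, and Idi1 has the widest spread of red points.

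Both genes of the first steps fell. Acat2, which encodes the cytosolic thiolase that joins acetyl-CoA units, was at 248, 219 and 229 CPM in vector replicates 1, 2 and 3 and at 81.8, 67.9 and 94.0 CPM in the Bhlhe22 replicates. The groups did not overlap, and the fitted level was 35.0% of vector (log2 fold change -1.51, SE 0.12, adjusted p = 0.00045 by edgeR). Acat3, a near-identical mouse neighbour that can share reads with Acat2, went from 28.8 ± 1.29 to 10.4 ± 1.76 CPM (SD, n = 3; log2 fold change -1.48), so the split of reads between the copies is uncertain while both values point the same way. Hmgcs1, the synthase that makes HMG-CoA (ENSMUSG00000093930, chromosome 13, 119690379 to 119708260, plus strand, GRCm38), was at 405, 396 and 378 CPM in vector and 160.1, 154 and 167 CPM in Bhlhe22 libraries. All 3 Bhlhe22 values lay within a narrow band far below the vector values (2.45-fold lower, log2 fold change -1.29, SE 0.07, adjusted p = 8.4e-05 by edgeR). It shares 12.1% of its exon bases with a gene on the other strand.

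The kinases and the decarboxylase that turn mevalonate into isopentenyl diphosphate are Mvk, Pmvk and Mvd, and Mvk and Mvd fell. Mvk, mevalonate kinase, was at 32.9, 36.0 and 37.6 CPM in vector and 22.3, 18.1 and 22.2 CPM in Bhlhe22 libraries. The ranges did not overlap (log2 fold change -0.77, SE 0.11, adjusted p = 0.0041 by edgeR). Pmvk, phosphomevalonate kinase, was at 86.1, 81.6 and 90.5 CPM in vector and 85.1, 64.8 and 56.2 CPM in Bhlhe22 libraries. Bhlhe22 replicate 1 lay inside the vector range and the other 2 below it, and the gene did not pass the test (log2 fold change -0.33, 95% interval -0.68 to 0.02, adjusted p = 0.17 by edgeR). Mvd, the diphosphomevalonate decarboxylase, was at 127, 115 and 134 CPM in vector and 66.0, 55.1 and 51.9 CPM in Bhlhe22 libraries. Its groups were well apart (2.17-fold lower, log2 fold change -1.12, SE 0.11, adjusted p = 0.00089 by edgeR).

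Idi1, the isomerase that supplies dimethylallyl diphosphate, had the most negative fold change of the 26 and the widest spread. It was at 194, 201 and 197 CPM in vector and 71.6, 30.8 and 82.9 CPM in Bhlhe22 libraries (log2 fold change -1.68, SE 0.33, adjusted p = 0.015 by edgeR). All Bhlhe22 values were below the vector values, but Bhlhe22 replicate 2 lay far below replicates 1 and 3. Its SD of log2(CPM + 1) was 0.75 in Bhlhe22 and 0.03 in vector libraries. Without Bhlhe22 replicate 1 the call was lost (log2 fold change -1.80, adjusted p = 0.094 by edgeR), as it was with no filter on low counts (0.075). Its relative Idi2 had at most 3 counts in any library.

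The prenyl diphosphate synthases did not pass the test. Fdps, which makes farnesyl diphosphate, was at 483, 466 and 419 CPM in vector and 481, 385 and 373 CPM in Bhlhe22 libraries. The first Bhlhe22 replicate was at the top of the vector range and the other 2 below it (log2 fold change -0.14, 95% interval -0.41 to 0.12, adjusted p = 0.43 by edgeR). Fdps shares 26.7% of its exon bases with the predicted gene Gm43738 on its own strand. Ggps1, which makes geranylgeranyl diphosphate for protein prenylation, was at 43.7, 41.9 and 41.8 CPM in vector and 48.0, 48.1 and 47.8 CPM in Bhlhe22 libraries. The groups did not overlap, with Bhlhe22 values higher, but the adjusted p was 0.13 by edgeR (log2 fold change 0.18, 95% interval 0.01 to 0.34, before adjustment).

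**Figure D2:**
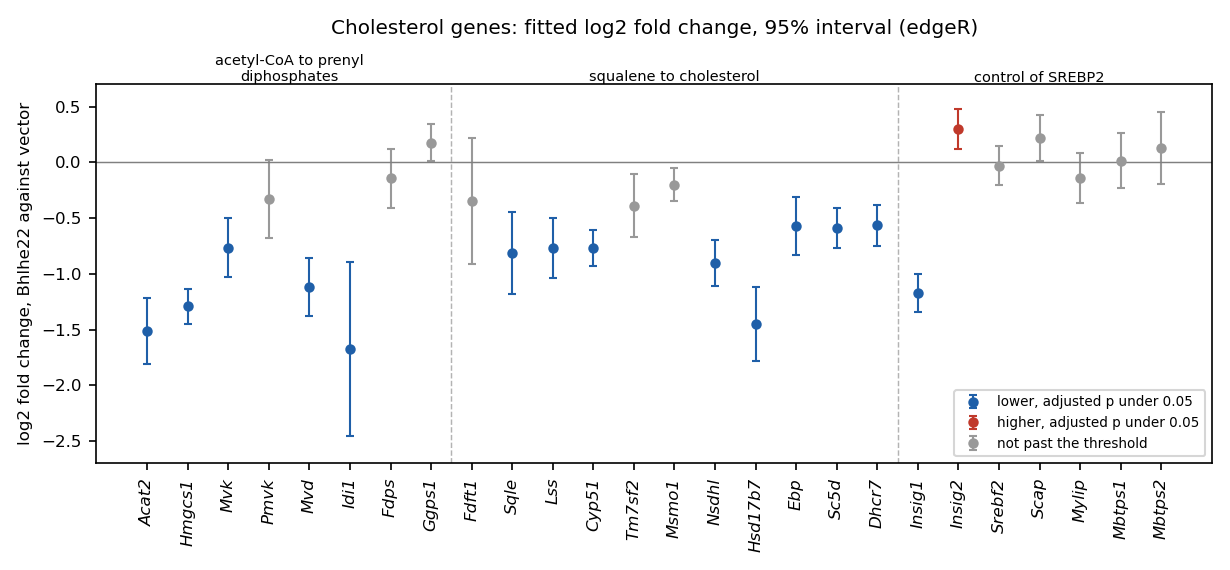
Fitted log2 fold change of Bhlhe22 against vector libraries (points) with its 95% interval (bars), for the 26 genes in pathway order. Blue points fell, the red point rose and grey points did not pass the threshold of 0.05. The intervals are widest for Idi1 (-2.46 to -0.90) and Fdft1 (-0.91 to 0.22), and Srebf2, Mbtps1 and Mbtps2 lie around 0.

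At the entry to sterols, Fdft1, squalene synthase, was at 107, 90.6 and 90.9 CPM in vector and 109, 57.8 and 60.8 CPM in Bhlhe22 libraries. Bhlhe22 replicate 1 was above every vector library and the other 2 were below all of them, and the gene did not pass the test (log2 fold change -0.34, SE 0.24, adjusted p = 0.37 by edgeR). Without that library its log2 fold change was -0.70 (adjusted p = 0.00065). It shares 18.3% of its exon bases with Ctsb on the other strand. Without Bhlhe22 replicate 1, Pmvk and Fdps also passed the test, with log2 fold changes of -0.52 (adjusted p = 0.0019 by edgeR) and -0.27 (0.013). In these 3 genes Bhlhe22 replicate 1 was the one library of its group not below the vector range.

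Sqle, squalene epoxidase, a flavin enzyme of the first oxygenation step, was at 326, 317 and 336 CPM in vector and 199.9, 139 and 217 CPM in Bhlhe22 libraries. Bhlhe22 replicate 2 was again the lowest, and the groups did not overlap (log2 fold change -0.82, SE 0.16, adjusted p = 0.012 by edgeR). It missed the threshold when vector replicate 1 (adjusted p = 0.051), vector replicate 3 (0.055) or Bhlhe22 replicate 1 (0.058) was left out. Lss, lanosterol synthase, which closes the sterol rings, was at 187, 160.1 and 147 CPM in vector and 93.2, 108 and 89.7 CPM in Bhlhe22 libraries. It was 1.70-fold lower with no overlap (adjusted p = 0.0046 by edgeR). Cyp51, the demethylase of lanosterol, was at 165, 178 and 167 CPM in vector and 95.9, 98.7 and 104 CPM in Bhlhe22 libraries, a tight pair of groups (1.71-fold lower, SE of the log2 fold change 0.07, adjusted p = 0.00061 by edgeR).

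The next enzymes remove the methyl groups that lanosterol carries. Msmo1, the methylsterol oxidase, was at 186, 179 and 181 CPM in vector and 156, 155 and 165 CPM in Bhlhe22 libraries. All Bhlhe22 values were lower, by a small amount that did not pass the test (log2 fold change -0.20, SE 0.06, adjusted p = 0.067 by edgeR). Msmo1 passed with DESeq2 (adjusted p = 0.036), with protein-coding genes alone (0.049) and without Bhlhe22 replicate 1 (0.023). Nsdhl, the dehydrogenase that acts after Msmo1, was at 67.4, 67.6 and 66.7 CPM in vector and 35.6, 33.1 and 39.2 CPM in Bhlhe22 libraries. It fell to 53.5% of vector (log2 fold change -0.90, SE 0.09, adjusted p = 0.00081 by edgeR). Hsd17b7, the keto-reductase that completes the step, was at 68.3, 66.9 and 62.7 CPM in vector and 19.1, 25.6 and 27.7 CPM in Bhlhe22 libraries. It fell 2.73-fold (log2 fold change -1.45, SE 0.14, adjusted p = 0.00086 by edgeR), the largest fall among the 11 enzymes from squalene onward.

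These 3 enzymes work one after the other, and the ratios between their levels did not overlap between the groups. The FPKM ratio (FPKM is the deposited unit that accounts for gene length and depth) of Nsdhl to Msmo1 was 1.21 ± 0.03 in vector and 0.74 ± 0.04 in Bhlhe22 libraries (SD, n = 3). That of Hsd17b7 to Msmo1 was 0.65 ± 0.02 and 0.27 ± 0.05. Upstream, Mvd to Fdps was 0.80 ± 0.11 and 0.41 ± 0.01. For each of these 3 ratios the exact two-sided permutation test gave p = 0.10, the smallest value that 3 against 3 allows. The ratios, 4 in all with the one below, were chosen after the values were seen.

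Tm7sf2, a sterol reductase with low expression, was at 16.2, 17.5 and 17.5 CPM in vector and 14.2, 13.8 and 11.2 CPM in Bhlhe22 libraries. Its groups did not overlap, but it did not pass the test (log2 fold change -0.39, SE 0.12, adjusted p = 0.062 by edgeR), and it shares 12.1% of its exon bases with Vps51 on the same strand. Tm7sf2 passed with DESeq2 (adjusted p = 0.039), with library size alone (0.049) and without Bhlhe22 replicate 1 (0.022). The last 3 enzymes fell by similar, smaller amounts. Ebp, the sterol isomerase, was at 38.6, 33.9 and 41.3 CPM in vector and 28.3, 25.2 and 23.3 CPM in Bhlhe22 libraries, with no overlap (log2 fold change -0.57, SE 0.11, adjusted p = 0.013 by edgeR). Ebp missed the threshold when vector replicate 1 (adjusted p = 0.061), vector replicate 3 (0.061) or Bhlhe22 replicate 2 (0.052) was left out. Sc5d, the sterol desaturase, was at 135, 135 and 147 CPM in vector and 95.1, 86.2 and 96.3 CPM in Bhlhe22 libraries (log2 fold change -0.59, adjusted p = 0.0027 by edgeR). Dhcr7, the reductase of the last step to cholesterol, was at 104, 103 and 109.8 CPM in vector and 67.3, 77.0 and 69.6 CPM in Bhlhe22 libraries (log2 fold change -0.56, adjusted p = 0.0031 by edgeR). Sc5d and Dhcr7 both had groups that did not overlap.

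Among the control genes, the pair of INSIG genes moved in opposite directions. Insig1, whose own transcription SREBP2 is known to drive, was at 220.5, 219 and 204 CPM in vector and 91.8, 93.4 and 101 CPM in Bhlhe22 libraries. The groups were far apart (2.25-fold lower, log2 fold change -1.17, SE 0.07, adjusted p = 0.00016 by edgeR). Insig2, its relative that is known to be less dependent on sterols, was at 41.2, 41.6 and 43.4 CPM in vector and 49.9, 51.1 and 54.4 CPM in Bhlhe22 libraries. It was higher in every Bhlhe22 library (log2 fold change 0.30, SE 0.08, adjusted p = 0.032 by edgeR). When single libraries were left out, the call was kept in 1 of 6 fits (without Bhlhe22 replicate 1), and the adjusted p by edgeR lay between 0.083 and 0.13 in the remaining 5. The call was lost, too, with no filter (0.054) and with the replicate number as a block (0.085). The FPKM ratio of Insig1 to Insig2 was 11.7, 11.6 and 10.3 in vector and 4.03, 4.0 and 4.08 in Bhlhe22 libraries (exact two-sided permutation p = 0.10, the smallest possible here).

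The transcript of SREBP2 itself did not pass the test. Srebf2 was at 584, 574 and 557 CPM in vector and 518, 596 and 565 CPM in Bhlhe22 libraries. The groups overlapped (log2 fold change -0.03, 95% interval -0.21 to 0.14, adjusted p = 0.82 by edgeR). Scap, the escort of SREBP2, was at 59.7, 58.8 and 57.4 CPM in vector and 61.6, 74.4 and 69.2 CPM in Bhlhe22 libraries. All Bhlhe22 values were higher, without passing the test (log2 fold change 0.22, SE 0.09, adjusted p = 0.12 by edgeR), and without Bhlhe22 replicate 1 its log2 fold change was 0.29 (adjusted p = 0.0078). Scap shares 13.2% of its exon bases with a gene on the other strand.

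Neither protease gene passed the test. Mbtps1, which encodes the protease of the first cut, was at 318, 337 and 260 CPM in vector and 293, 323 and 308 CPM in Bhlhe22 libraries, so the groups overlapped (log2 fold change 0.02, 95% interval -0.23 to 0.26). Its log2 fold change turned to -0.0069 when scaled by library size alone, and to -0.087 without vector replicate 3. Mbtps2, which encodes the protease of the second cut, was at 57.6, 67.4 and 66.5 CPM in vector and 56.2, 77.0 and 76.4 CPM in Bhlhe22 libraries (log2 fold change 0.13, 95% interval -0.19 to 0.45). Bhlhe22 replicate 1 lay below the vector range and the others above it, the call appeared without that library (0.26, adjusted p = 0.037 by edgeR), and 28.4% of the exon bases belong also to Yy2 on the same strand. Mylip, the ubiquitin ligase that marks lipoprotein receptors for degradation and is a target of the sterol sensor LXR, was at 24.2, 22.6 and 25.5 CPM in vector and 20.4, 21.5 and 23.7 CPM in Bhlhe22 libraries. Its groups overlapped (log2 fold change -0.14, 95% interval -0.36 to 0.09, adjusted p = 0.37 by edgeR).

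**Figure D3:**
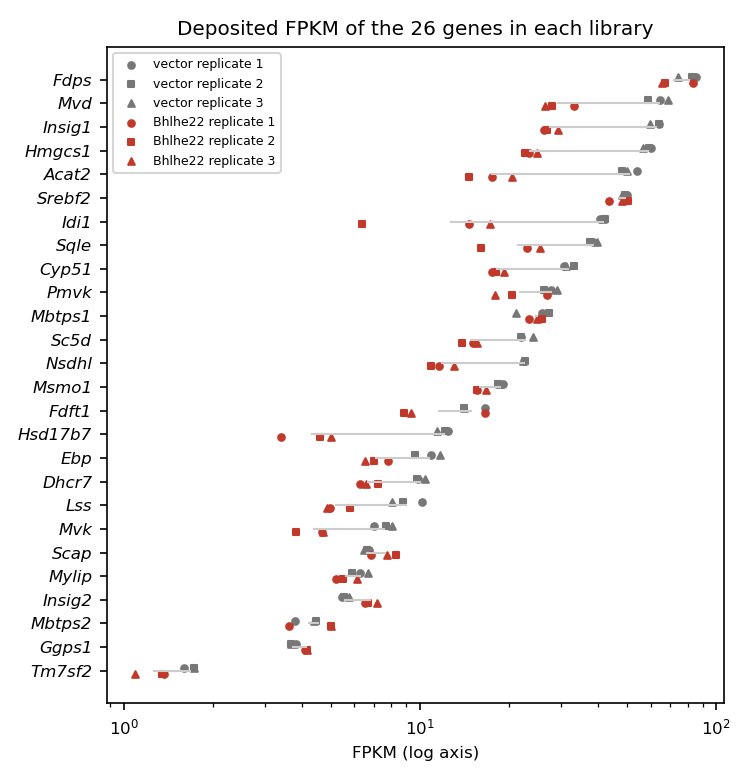
Deposited FPKM of the 26 genes in each library (x axis, log scale), ordered by the vector mean (y axis). Grey points are vector libraries, red points Bhlhe22 libraries, shape gives the replicate number and the line joins the group means. Fdps is the highest and Tm7sf2 the lowest gene in both groups, and Srebf2 moves from rank 6 to rank 2.

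Per length, the levels ran from 80.7 ± 5.82 FPKM for Fdps to 1.68 ± 0.08 FPKM for Tm7sf2 in vector cells, and from 71.9 ± 9.81 to 1.27 ± 0.15 FPKM for the same genes in Bhlhe22 cells (SD, n = 3). In vector cells Mvd (64.2 ± 4.95), Insig1 (62.6 ± 2.60) and Hmgcs1 (58.7 ± 1.97 FPKM) followed Fdps, and these 3 neighbours overlapped in their ranges. Acat2 (50.6 ± 3.11) and Srebf2 (49.1 ± 1.13 FPKM) came next and overlapped too. In Bhlhe22 cells Srebf2, at 47.4 ± 3.52 FPKM, ranked 2 and lay above Mvd (29.1 ± 3.53 FPKM) without overlap. Idi1 went from rank 7 to rank 13 and Hsd17b7 from 16 to 24. The summed FPKM of the 26 genes was 686 ± 12.5 in vector and 428 ± 21 in Bhlhe22 libraries, which is 62.4% of the vector sum. The sum was at 55.3% for the enzymes up to the prenyl diphosphates, 61.7% for those from squalene onward and 77.9% for the control genes. Insig1 alone went from 62.6 to 27.4 FPKM.

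Each Bhlhe22 library showed the shift on its own. Below the whole vector range lay 19 of the 26 genes in replicate 1, 20 in replicate 2 and 19 in replicate 3, against 39.1%, 36.1% and 37.0% of all tested genes. The median difference from the vector mean on the log2(CPM + 1) scale was -0.47, -0.58 and -0.60 in the 3 libraries, and 0.01, 0.00 and 0.00 over all tested genes. The spread between libraries was larger in Bhlhe22 than in vector cells for 21 of 26 genes, as it was for 69.7% of all tested genes. Of the 14 genes that fell, 11 kept their call in all 17 alternative fits, namely Acat2, Hmgcs1, Mvk, Mvd, Lss, Cyp51, Nsdhl, Hsd17b7, Sc5d, Dhcr7 and Insig1, and the other 3 were Idi1, Sqle and Ebp.

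**Figure D4:**
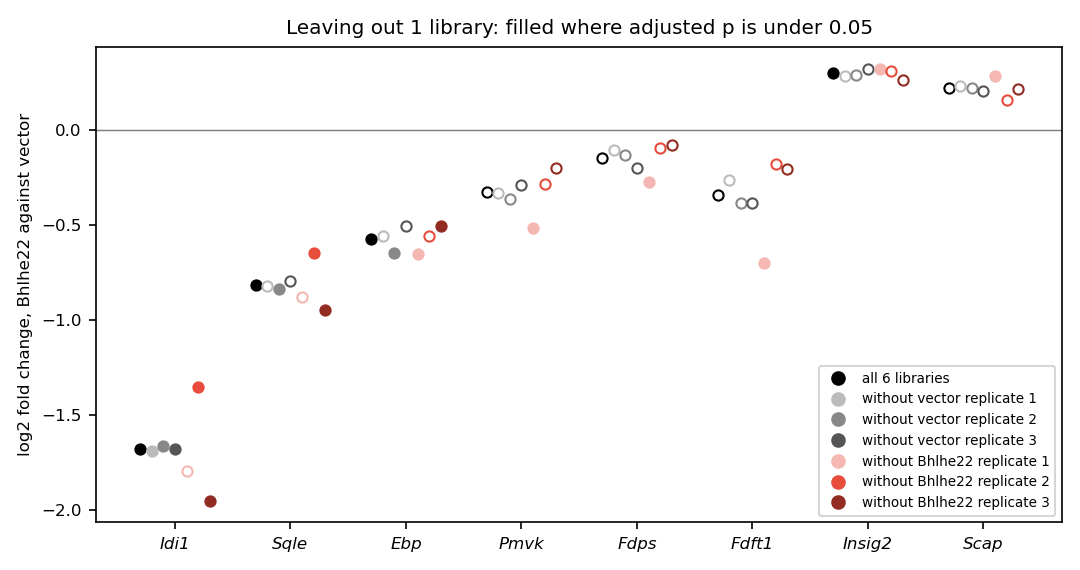
Log2 fold change (y axis) of the 8 genes shown on the x axis, with all 6 libraries and without each library in turn, filled where the edgeR adjusted p is under 0.05. Pmvk, Fdps, Fdft1 and Scap are filled only in the fit without Bhlhe22 replicate 1, and Insig2 only in that fit and the one with all 6 libraries.

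Other genes of sterol metabolism were read from lists in the same fit. Of 10 further genes of sterol synthesis and SREBP2 targets, 9 were tested, 6 fell, 1 rose and 2 did not pass, with a median log2 fold change of -0.67. Beside these stand 9.28% lower and 10.4% higher over all tested genes. Stard4, a carrier of sterol between membranes, went from 146 ± 2.55 to 69.6 ± 7.75 CPM (log2 fold change -1.07, adjusted p = 0.00054 by edgeR). Rdh11, a retinol dehydrogenase gene, went from 192 ± 2.21 to 109 ± 0.30 CPM (-0.82, adjusted p = 0.00027 by edgeR). The gene that rose was Tmem97, the sigma receptor gene that is also an SREBP target, from 82.1 ± 2.43 to 132 ± 20.7 CPM (0.68, adjusted p = 0.0072 by edgeR), named after its value was seen. The branch that uses prenyl diphosphates for proteins, dolichol and ubiquinone had 1 of 17 genes higher (Rabggta, log2 fold change 0.31, adjusted p = 0.023 by edgeR), 0 lower and a median of 0.12. Over all tested genes 10.4% were higher and 9.28% lower, so counts of adjusted calls this small in 17 genes do not set the branch apart. In 8 of the 17 genes all Bhlhe22 libraries lay above all vector libraries (20.8% of tested genes), and in 1 they lay below (20.0%). Whether the branch as a whole differed was not tested. The call of Rabggta was kept without Bhlhe22 replicate 1, when 3 genes of the branch were higher, and lost without any other single library (0 higher). Over all genes, the fit without Bhlhe22 replicate 1 had 2345 of 14945 tested genes higher. At an unadjusted edgeR p under 0.05, 0 genes of the branch were lower and 5 higher, and DESeq2 and limma also called 0 lower. The share of all tested genes at that unadjusted p was not worked out.

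Among 24 tested genes that carry SREBP2 or regulate it by degradation, 5 rose, 2 fell and 17 missed the threshold (median log2 fold change 0.02), beside 10.4% higher and 9.28% lower over all tested genes. Erlin1, which encodes an endoplasmic reticulum protein that binds cholesterol and is known to restrain SREBP activation, was at 50.3 ± 2.90 CPM in vector and 181 ± 6.26 CPM in Bhlhe22 libraries (log2 fold change 1.84, SE 0.07, adjusted p = 4.7e-05 by edgeR). Paqr3, which anchors SCAP and SREBP at the Golgi, rose from 4.76 ± 1.3 to 20.9 ± 3.74 CPM (2.13, SE 0.22, adjusted p = 0.0011 by edgeR). Rnf145, a sterol-responsive ubiquitin ligase, fell from 168 ± 3.01 to 90.8 ± 1.32 CPM (-0.89, adjusted p = 0.00022 by edgeR).

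Fatty acid synthesis genes, which SREBP1 and in part SREBP2 control, had 11 of 18 lower, 0 higher and a median log2 fold change of -0.50. All tested genes had 9.28% lower and 10.4% higher. At an unadjusted edgeR p under 0.05, 12 were lower and 1 higher (the all-gene share at that p was not worked out), and DESeq2 and limma also called 0 higher. Without Bhlhe22 replicate 1 the counts were 13 lower and 1 higher, beside 2337 lower and 2345 higher of 14945 tested genes. Leaving out any 1 vector library left 7 genes of the list lower. Elovl6, an elongase, went from 179.8 ± 5.40 to 88.6 ± 12.2 CPM (log2 fold change -1.02, adjusted p = 0.0010 by edgeR). Fads2, a desaturase (-0.92), Acly, which supplies cytosolic acetyl-CoA (-0.80), and Aacs, which activates acetoacetate (-0.68), also fell. Of 17 genes of sterol transport, esterification and efflux, 4 rose and 2 fell (median 0.22), beside the same 10.4% and 9.28% over all tested genes, with 1 higher and 0 lower without any 1 vector library or Bhlhe22 replicate 2. Soat2, which encodes an enzyme that esterifies cholesterol, rose from 11.7 ± 0.93 to 59.4 ± 3.31 CPM (2.34, SE 0.10, adjusted p = 4.7e-05 by edgeR). Osbp (0.44), Soat1 (0.33) and Abcg1 (-0.80), an oxysterol-binding protein gene, the second esterifying enzyme gene and a sterol exporter gene, passed the test with all 6 libraries and missed it without any 1 vector library.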

How the data were processed

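RNA of 6 libraries of RM-1 cells was sequenced, 3 with the blank vector and 3 with Bhlhe22. Per the submitters' processing notes, CASAVA 1.8, HISAT2 2.1.0, StringTie 1.3.4b and edgeR were used on the GRCm38 build. The annotation release, the strand of counting and filters are named in none of the labels or headers read here. The deposited table holds the authors' raw counts per gene and the authors' FPKM. For 10435 genes (all that reached 100 counts in each library), the deposited counts and FPKM implied the same gene length in all libraries within 0.001%.

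Genes were tested on the deposited counts with edgeR 4.0.16 (R 4.3.3; TMM scaling, filterByExpr with a minimum count of 10 and a minimum total of 15, robust quasi-likelihood F test), Bhlhe22 against vector. P-values were adjusted by Benjamini-Hochberg over all 14663 tested genes at a threshold of 0.05. CPM use TMM-scaled library sizes, and a pseudocount of 1 was added before logs of CPM or FPKM. The fit was tested on simulated data. Ratios of FPKM were compared by exact permutation. Alternatives were DESeq2 1.42.0, limma 3.58.1 (voom, and log2 FPKM), other scalings and filters, protein-coding genes alone, a replicate block and leaving out each library.

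The members and the gene lists were chosen with earlier results of these data known. The genes named are all 26 members, Bhlhe22, and up to 4 called genes of smallest adjusted p from each pathway list, apart from those said to be named after their values were seen; some genes that the rule gives are not reported here. Of 25 genes in the list on SREBP transport and degradation, 24 were found by symbol. Exon sharing was read from GENCODE gene models of GRCm38, with the same coordinates as the deposited table for all 26 members.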

Additional observations from a re-analysis of the deposited data

How the results depend on the processing

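The count of lower members was 14, with 13 to 16 over the 11 alternatives that keep all libraries and 12 to 17 when 1 library was left out. The median log2 fold change of all 26 members stayed between -0.63 and -0.52 over all 17 alternatives. The count of higher members was 1, with 0 when no filter on low counts was used and 0 to 3 when 1 library was left out. Over all genes, leaving out 1 library gave 715 to 2345 higher and 633 to 2337 lower genes, against 1520 and 1361 with all 6, the highest counts in both directions being without Bhlhe22 replicate 1; the cause was not tested. The sign of Mbtps1, which did not pass the test, turned with library size alone (-0.0069) and with limma on log2 FPKM (-1.23e-05), and its log2 fold change ran from -0.087 (vector replicate 3 left out) to 0.092 (vector replicate 2 left out), with -0.018 when Bhlhe22 replicate 2 was dropped. That of Srebf2 ran from -0.076 (Bhlhe22 replicate 2 left out) to 0.015 (Bhlhe22 replicate 1 left out). The labels do not say whether replicate numbers pair the samples. Same-numbered libraries had correlations of deviations of 0.0531, 0.0229 and 0.0273, and 1 of 6 libraries correlated best with its own number. These values show no clear pairing, but with 3 libraries per group they cannot exclude it. With the replicate block, 14 members were lower and 0 higher. The 3 libraries per group limit the precision.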
